A study of Arabidopsis thaliana with 10 samples.

Results

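The seedlings compared here carry the transcription factor BEH2 in excess, and the comparison with wild type asks which transcripts differ when BEH2 is overexpressed. The genes described are the protein-coding loci whose larger group value reached 1 FPKM (fragments mapped to a transcript, scaled to its length and to the number of mapped fragments), which were 19628 of 27560 protein-coding loci and of 38303 loci in the deposited table. All groups were whole Arabidopsis thaliana seedlings of the ecotype Columbia-0 (Col-0), 12 days old and grown on Murashige and Skoog medium in long days at 23 °C, with 2 libraries per group. Wild type Col-0 and BEH2-YFP, a fusion of BEH2 with yellow fluorescent protein overexpressed in Columbia-0 from the 35S promoter, were left untreated. For reference, BZR1-YFP is the same kind of line for the related factor BZR1 and shares the same Col-0 libraries, and a second pair of Col-0 groups received mock or 100 nM brassinolide, the most active brassinosteroid, for 6 h. The 35S promoter is active in nearly all plant tissues. Whether BEH2-YFP is 1 transgenic line or several is not given in the sources used here, and what separates the biological replicates is not stated beyond that word.

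Brassinosteroids are steroid hormones of plants that promote cell expansion. They are perceived at the cell surface by the receptor kinase BRI1, and the signal ends at a small family of transcription factors, BZR1, BES1 and BEH1 to BEH4, which are inactivated by phosphorylation when the hormone is low. Members of the family bind short DNA letters known as the brassinosteroid response element and the E-box. In seedlings BZR1 and BES1 are known for repressing genes of brassinosteroid synthesis and for activating genes that loosen the cell wall.

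The deposited table holds 1 pooled FPKM value per gene and group, so no value per library, no spread between libraries and no depth can be given. A gene counts as risen or fallen where its q-value in the authors' deposited table is under 0.05. The log2 ratio is that of the pooled values, and the number after ± is its standard error as implied by the deposited test statistic (n = 2 libraries per group). This error rests on 1 conversion factor for all genes and is approximate for single genes. The effect, used for medians and ranks, is the log2 ratio after adding 0.5 FPKM to both groups, which understates the change of low genes. How reads were shared between near-identical genes, such as tandem copies, is uncertain wherever such genes are named.

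The BEH2 transcript (AT4G36780, chromosome 4, 17332269 to 17334355, minus strand) rose from 25.8 to 2477 FPKM, a log2 ratio of 6.59 ± 0.30, and stood at 25.7 FPKM in BZR1-YFP. Transgene and native BEH2 transcripts cannot be told apart. Among the other factors of the family, BES1 rose from 112 to 296 FPKM (log2 ratio 1.4 ± 0.21) and BEH1 fell from 19.2 to 12.8 FPKM (log2 ratio -0.58 ± 0.19). BZR1, at 13.8 and 15.7 FPKM, BEH3, at 7.86 and 7.94 FPKM, and BEH4, at 14.1 and 11.1 FPKM, were not called, nor was the receptor BRI1, at 39.3 and 28.3 FPKM.

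Of 19618 genes tested, 1596 rose (8.14%) and 979 fell (4.99%), and these shares are the background for every list below. Among lists of 20 or more genes the share of rises was highest for xyloglucan endotransglucosylases of the cell wall (13 of 26), cysteine-rich receptor-like kinases (15 of 33), beta-glucosidases (10 of 23) and the auxin-related SAUR-like proteins (23 of 58). The share of falls was highest for pathogenesis-related proteins (11 of 30), defensins and thionins (7 of 21) and expansins (6 of 20). The median effect of the rises was 0.99 and that of the falls -0.83, while 5% of all members had an effect below -0.72 and 5% above 0.95. Rises with an effect of 1 or more numbered 788, and falls with an effect of -1 or less 323. At an effect of 3 or more there were 53 rises, and at -3 or less 11 falls. The share that rose was 2.89% of the 2597 members between 1 and 3 FPKM and 17.6% of the 324 members at 300 FPKM or more, and the share that fell was 4.43% and 3.09%. The median standard error of the log2 ratio was 0.39 in the lower class and 0.21 in the higher one. Of 978 members under 1 FPKM in 1 of the groups, 105 rose and 114 fell. Just inside the limit lay AT5G63250, a carbohydrate-binding protein at 0.23 and 1.001 FPKM in Col-0 and BEH2-YFP, and just outside it AT4G16610, a zinc finger protein at 0.999 and 0.615 FPKM.

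**Figure D1:**
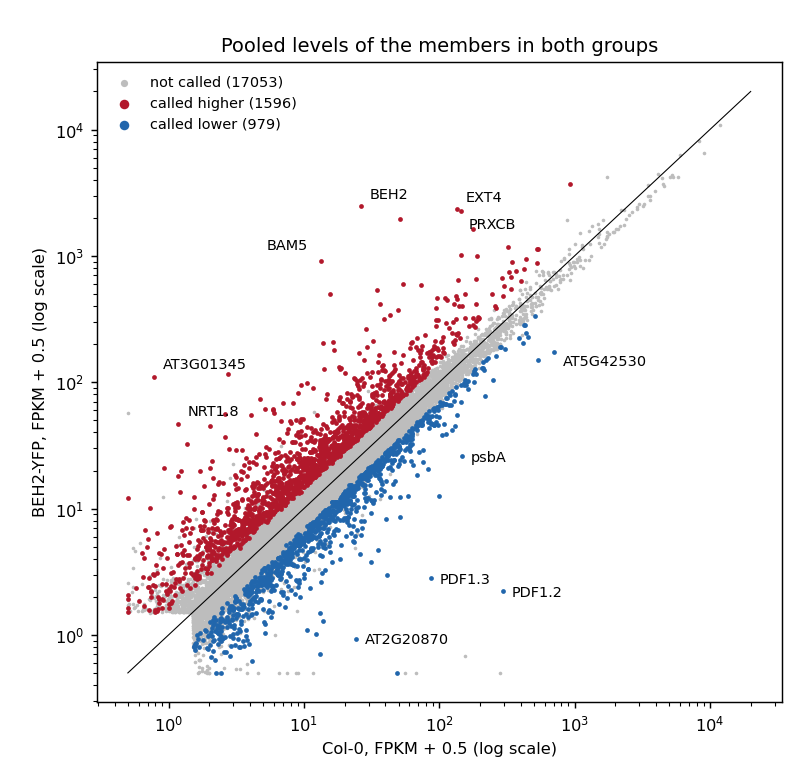
Pooled level of each of the 19628 members in Col-0 (horizontal) and BEH2-YFP (vertical), both in FPKM with 0.5 added and on log scales, with 1596 members called higher in red, 979 called lower in blue and the others in grey. The line marks equal levels, with BEH2, BAM5 and AT3G01345 far above it and the defensin genes PDF1.2 and PDF1.3 far below.

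Brassinosteroid synthesis is known to be held back by the hormone itself. Of 10 enzymes of the pathway, listed here after their values had been seen, 0 rose and 3 fell by Cuffdiff in BEH2-YFP, with 0 higher and 4 lower at an unadjusted p under 0.05. DWF4, which adds a hydroxyl group to the side chain, fell from 6.91 to 2.17 FPKM (log2 ratio -1.67 ± 0.25), CYP90D1 from 4.91 to 1.03 FPKM (log2 ratio -2.25 ± 0.30) and BR6OX1, an enzyme of the last steps, from 1.84 to 0.637 FPKM (log2 ratio -1.53 ± 0.38). CPD, which acts near DWF4 in the pathway, was at 90.04 and 74.3 FPKM and BR6OX2 at 11.5 and 8.37 FPKM, neither called, whereas brassinolide treatment lowered CPD from 126 to 25.2 FPKM and BR6OX2 from 10.2 to 0.215 FPKM. Brassinolide treatment also lowered DWF4 from 13.5 to 1.18 FPKM and CYP90D1 from 5.8 to 0.979 FPKM. BAS1, which inactivates brassinosteroids, rose from 4.47 to 11.5 FPKM in BEH2-YFP and from 5.07 to 18.2 FPKM with brassinolide. BRI1 fell with brassinolide from 42.9 to 23.8 FPKM, and its relatives BRL1, from 4.09 to 2.47 FPKM, and BRL3, from 7.13 to 3.25 FPKM, did too, while in BEH2-YFP they were at 2.72 and 3.51 FPKM against 2.36 and 3.58 FPKM in Col-0, not called.

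Markers of organs showed the following levels. Summed over 5 leaf markers the level was 28417 FPKM in Col-0 and 23364 FPKM in BEH2-YFP, with 0 markers called by Cuffdiff and 0 at an unadjusted p under 0.05. Over 9 root markers the sums were 1861 and 1545 FPKM, mostly from PYK10, a root beta-glucosidase at 1781 and 1481 FPKM that was not called. Of the 9 markers 2 fell, both genes of root hairs, SHV2 from 3.49 to 1.73 FPKM and RHD6 from 3.77 to 1.94 FPKM. Over 8 floral markers the sums were 35.9 and 20.9 FPKM, and AP1, PI and AGL8 fell. SEP3, the floral marker with the highest level, was at 15.2 and 16.2 FPKM and not called. Over 4 shoot meristem markers they were 11.6 and 12.4 FPKM, with 0 called by Cuffdiff and 0 at an unadjusted p under 0.05. Over 4 guard cell markers the sums were 31.96 and 38.2 FPKM, and the guard cell factor MYB60 rose from 10.5 to 17.2 FPKM while the potassium channel KAT1 fell from 9.42 to 5.36 FPKM. All 5 seed maturation markers were below 1 FPKM in both groups. In the Col-0 group that received mock, the leaf, root and floral sums were 14293, 1185 and 17.3 FPKM. The shoot meristem and guard cell sums of that group were 14.2 and 49.6 FPKM. In whole seedlings, fewer cells of a type and less RNA per cell cannot be told apart, and the part of organ proportions in the results was not tested.

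Among transcription factors, WRKY factors, which bind W-box letters and act in defence and senescence, rose in 19 of 58 cases and fell in 5, with a median effect of 0.38. WRKY38 rose from 0.53 to 6.68 FPKM (log2 ratio 3.66 ± 0.42) and WRKY48 from 2.03 to 15.4 FPKM. WRKY18, WRKY60 and WRKY40 are known to form complexes with each other. WRKY18 rose from 7.51 to 46.6 FPKM and WRKY60 from 9.02 to 40.7 FPKM, whereas WRKY40 fell from 8.7 to 2.2 FPKM (log2 ratio -1.98 ± 0.44). WRKY33, needed for camalexin synthesis, and WRKY70, which acts in salicylate signalling, also fell, WRKY33 from 32.99 to 22.2 FPKM and WRKY70 from 38.9 to 13.3 FPKM.

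NAC factors rose in 16 of 71 cases and fell in 1, with a median effect of 0.14. NAC096 rose from 1.19 to 6.79 FPKM, NAC019, a stress-induced factor, from 4.3 to 14.7 FPKM, and the NAC2 gene AT3G15510 from 8.16 to 33.1 FPKM. Ethylene response and AP2 factors had 16 rises and 9 falls among 86 members. DREB26 rose from 3.45 to 23.02 FPKM and SMZ, a repressor of flowering, from 2.9 to 19.5 FPKM, while ORA47, a regulator of jasmonate synthesis, fell from 8.13 to 1.62 FPKM. AIL7, a relative of the growth regulator AINTEGUMENTA, rose from 1.2 to 19.5 FPKM (log2 ratio 4.02 ± 0.30).

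Of 164 homeobox and homeodomain-like proteins 20 rose and 7 fell, with KNAT4, of the knotted class, going from 18.8 to 67.7 FPKM and the stress-induced HB-7 gene AT2G46680 from 21.4 to 71.1 FPKM. Of 103 MYB factors 18 rose and 8 fell, and MYB90, an activator of anthocyanin synthesis, fell from 2.08 to 0.234 FPKM. Of 34 MADS-box factors 1 rose and 6 fell, among them the floral factors AP1, from 3.61 to 0.12 FPKM, AGL8, from 4.99 to 1.07 FPKM, and PI, from 3.62 to 0.97 FPKM. bHLH factors, with 9 rises and 7 falls among 94, and bZIP factors, with 2 and 2 among 47, gave rises in 9.57% and 4.26% of their members. HFR1, a bHLH factor of light signalling, fell from 9.46 to 2.35 FPKM.

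Cysteine-rich receptor-like kinases, membrane kinases linked to defence and oxidative stress, rose in 15 of 33 cases and fell in 3, with a median effect of 0.62. CRK36 rose from 1.68 to 12.3 FPKM (log2 ratio 2.87 ± 0.25), CRK30 from 2.2 to 8.94 FPKM and CRK20 from 0.0726 to 1.84 FPKM. Lectin receptor kinases rose in 13 of 53 cases and fell in 1, with 15 higher and 1 lower at an unadjusted p under 0.05 in the Cuffdiff test. Wall-associated kinases, which bind pectin, rose in 5 of 12 cases and fell in 0, with the same counts at an unadjusted p under 0.05. WAK1, a wall-associated kinase, rose from 21.2 to 41.01 FPKM.

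Receptor kinases with leucine-rich repeats, taken as 1 list, had 15 rises and 12 falls among 148. FLS2 (AT5G46330), the receptor for bacterial flagellin, rose from 7.85 to 33.1 FPKM (log2 ratio 2.08 ± 0.26), while its partner BAK1, which also pairs with BRI1, was at 21.4 and 21.6 FPKM and not called. Receptor-like proteins, which lack the kinase, went both ways, with 10 rises and 9 falls among 41. RLP21 rose from 0.21 to 5.27 FPKM and RLP6 from 0.75 to 6.32 FPKM, and RLP23, the receptor for a peptide of microbial necrosis-inducing proteins, fell from 3.29 to 0.408 FPKM.

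Inside the cell, nucleotide-binding immune receptors and their TIR relatives rose in 27 of 127 cases and fell in 4, with a median effect of 0.21. ADR1, a helper through which other immune receptors signal, rose from 4.8 to 18.7 FPKM (log2 ratio 1.96 ± 0.20). AT1G72910, a TIR domain protein, fell from 22.9 to 4.92 FPKM (log2 ratio -2.22 ± 0.21). Of 109 calmodulins, calmodulin-binding and EF-hand proteins 15 rose and 6 fell. SARD1, a calmodulin-binding-like regulator of salicylate synthesis, rose from 2.61 to 9.67 FPKM and CAM8 from 1.61 to 11.3 FPKM.

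Among hormone genes, SAUR-like proteins, many of which promote growth in response to auxin, rose in 23 of 58 cases and fell in 1, with a median effect of 0.38. SAUR9 rose from 1.85 to 15.9 FPKM (log2 ratio 3.10 ± 0.32), AT2G21220 from 1.26 to 8.84 FPKM and AT2G18010 from 0.638 to 4.55 FPKM. Aux/IAA proteins and auxin response factors had 3 rises and 6 falls among 35. ARF10 rose from 9.63 to 20.5 FPKM, and ARF11 fell from 10.9 to 4.17 FPKM and IAA29 from 3.99 to 1.78 FPKM. GH3.3, which conjugates auxin to amino acids, rose from 4.24 to 73.6 FPKM (log2 ratio 4.12 ± 0.21).

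JAZ proteins, which hold back jasmonate responses, rose in 4 of 11 cases and fell in 0 by Cuffdiff, with 8 higher and 0 lower at an unadjusted p under 0.05. JAZ10 rose from 3.09 to 21.7 FPKM. LOX2, an enzyme of jasmonate synthesis, rose from 189 to 988 FPKM (log2 ratio 2.38 ± 0.28). GASA1, a small peptide gene known from gibberellin responses, rose from 178 to 1625 FPKM (log2 ratio 3.19 ± 0.20), and GA3OX1, which makes active gibberellin, from 5.13 to 11.8 FPKM. Of 27 abscisic acid receptors and responsive proteins 4 rose and 1 fell. The receptor PYL4 rose from 35.96 to 89.1 FPKM and the receptor PYL2 fell from 3.49 to 1.6 FPKM.

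**Figure D2:**
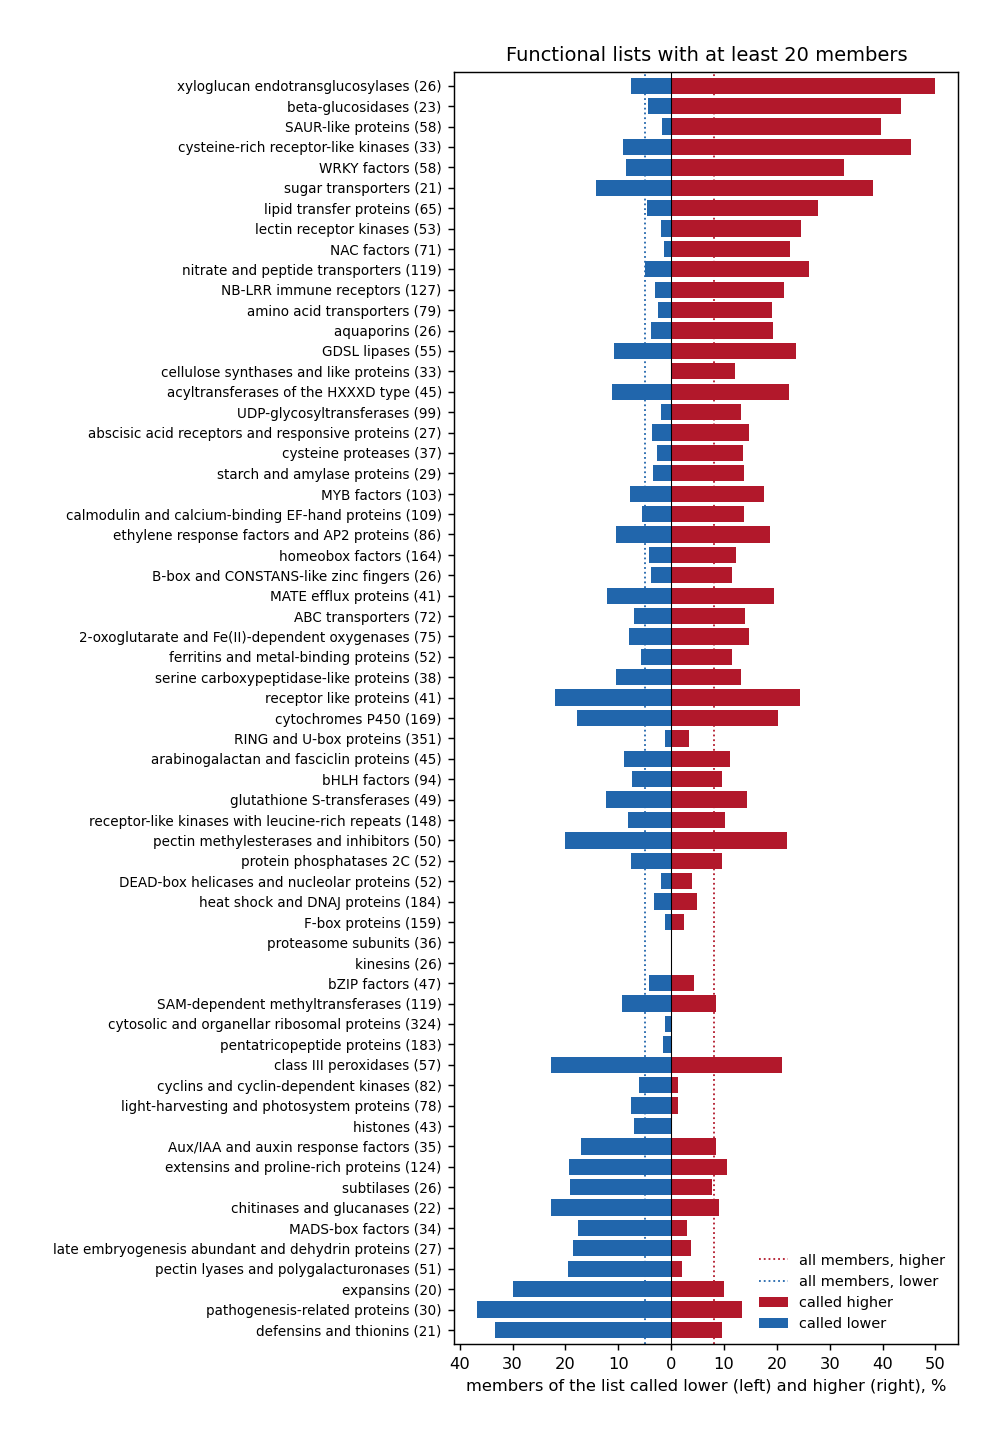
Share of members called lower (blue, left) and higher (red, right), in %, in the functional lists with at least 20 members, with the number of members in brackets and lists ordered by the difference of both shares. Dotted lines mark the shares over all members, and xyloglucan endotransglucosylases, beta-glucosidases, SAUR-like proteins and cysteine-rich kinases lie at the upper end with expansins, pathogenesis-related proteins and defensins at the lower.

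Xyloglucan endotransglucosylases, which cut and rejoin the chains that tie cellulose fibrils, rose in 13 of 26 cases and fell in 2, with a median effect of 0.53. XTH11 rose from 0.878 to 31.7 FPKM, XTR6 from 5.38 to 61.2 FPKM (log2 ratio 3.51 ± 0.21) and XTH25 from 1.33 to 14.6 FPKM, whereas XTH14 fell from 20.6 to 8.13 FPKM. Expansins, which loosen the wall, rose in 2 of 20 cases and fell in 6, and 16 had a negative effect. EXPA8 fell from 131 to 44.6 FPKM and EXPA11 from 31.99 to 10.5 FPKM, while the expansin-like EXLA1 rose from 8.98 to 94.6 FPKM.

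Pectin lyases and polygalacturonases, which degrade pectin, rose in 1 of 51 cases and fell in 10, and 39 had a negative effect. AT5G55720 fell from 2.73 to 0.527 FPKM and AT3G15720 rose from 2.18 to 9.55 FPKM. Pectin methylesterases and their inhibitors went both ways, with 11 rises and 10 falls among 50. ATPMEPCRB rose from 5.4 to 59.8 FPKM (log2 ratio 3.47 ± 0.20) and PMEPCRF from 23.98 to 102 FPKM. Of 33 cellulose synthases and like proteins 4 rose and 0 fell by Cuffdiff, with 6 higher and 6 lower at an unadjusted p under 0.05.

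Extensins and proline-rich proteins, structural glycoproteins of the wall, had 13 rises and 24 falls among 124. EXT4 rose from 135 to 2350 FPKM (log2 ratio 4.12 ± 0.30) and AT3G50570 from 1.64 to 17.02 FPKM, while AT5G22430, of the pollen allergen and extensin family, fell from 11.9 to 0.519 FPKM (log2 ratio -4.52 ± 0.48). Class III peroxidases, which can crosslink such proteins, had 12 rises and 13 falls among 57. PRXCB, known for the oxidative burst of defence, rose from 144 to 2251 FPKM (log2 ratio 3.96 ± 0.28), PA2 from 3.55 to 54.9 FPKM and AT4G37520 from 73.3 to 591 FPKM.

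The lists of pathogenesis-related proteins and of defensins and thionins had more falls than rises. Of 30 pathogenesis-related, CAP and thaumatin proteins 4 rose and 11 fell, with a median effect of -0.34. The members with the largest rises were PR1, a marker of salicylate defence, from 15.2 to 500.1 FPKM (log2 ratio 5.04 ± 0.21), and PR4, a chitin-binding protein, from 145 to 1009 FPKM, while the CAP protein AT5G66590 fell from 23.3 to 5.58 FPKM. Of 21 defensins and thionins 2 rose and 7 fell. PDF1.2, a defensin marker of jasmonate and ethylene defence, fell from 293 to 1.72 FPKM (log2 ratio -7.42 ± 0.39), PDF1.3 from 86.5 to 2.31 FPKM and THI2.1 from 34.96 to 4.21 FPKM. PDF1.2b went from 48.04 FPKM to a value listed at 0, and PDF1.2c was at 155 and 0.177 FPKM without a call, with a q-value of 0.214 in the authors' deposited table. In the Col-0 group that received mock, PDF1.2 was at 3.74 FPKM, PDF1.3 at 3.09 FPKM and PDF1.2b at 1.81 FPKM.

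Of 22 chitinases and glucanases 2 rose and 5 fell. ChiC rose from 15.6 to 52.6 FPKM, and BGL2, the glucanase also called PR2, fell from 63.2 to 21.6 FPKM. Of single genes picked after their values had been seen, the trypsin inhibitors KTI1 and TI1 rose, KTI1 from 53.6 to 593 FPKM (log2 ratio 3.47 ± 0.19) and TI1 from 35.8 to 416 FPKM (log2 ratio 3.54 ± 0.19). TI2, next to TI1, was at 6.18 and 6.92 FPKM and not called, and AT3G04320, of the Kunitz family of inhibitors, fell from 4.94 to 2.15 FPKM.

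In specialised metabolism, cytochrome P450 enzymes had 34 rises and 30 falls among 169, with a median effect of -0.01. CYP82C2 rose from 0.167 to 6.31 FPKM and CYP81D1 from 7.01 to 38.9 FPKM, and CYP76G1 fell from 3.46 to 0.343 FPKM. Beta-glucosidases, which release active compounds from stored glucosides, rose in 10 of 23 cases and fell in 1. BGLU45, which acts on glucosides of lignin precursors, rose from 2.13 to 55.6 FPKM (log2 ratio 4.71 ± 0.25) and BGLU47 from 2.78 to 13.95 FPKM. UDP-glycosyltransferases rose in 13 of 99 cases and fell in 2 by Cuffdiff, with 20 higher and 15 lower at an unadjusted p under 0.05, and 51 had a negative effect. Glutathione S-transferases, which detoxify, had 7 rises and 6 falls among 49. Terpene synthases and cyclases rose in 1 of 19 cases, TPS04, from 2.52 to 8.21 FPKM, and fell in 6, with a median effect of -0.56.

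The 4 neighbouring genes of the thalianol cluster, which make and modify a root triterpene, all fell. THAS1, the synthase, went from 39.9 to 16.1 FPKM (log2 ratio -1.32 ± 0.18), CYP705A5 from 54.6 to 23.2 FPKM, CYP708A2 from 43.6 to 23.8 FPKM and the acyltransferase AT5G47980 from 3.41 to 1.59 FPKM. They lie on chromosome 5 between 19428888 and 19461706. In BZR1-YFP THAS1 was at 26.6 FPKM and CYP705A5 at 37.7 FPKM. In the marneral cluster, another triterpene cluster, CYP705A12 fell from 9.01 to 4.87 FPKM and CYP71A16 from 11.9 to 6.98 FPKM, and the synthase MRN1 was at 9.05 and 6.14 FPKM, not called. Berberine bridge enzyme-like proteins, oxidases of oligosaccharides and other compounds, rose in 12 of 18 cases and fell in 0, with the same counts at an unadjusted p under 0.05. AT4G20860 rose from 25.5 to 103 FPKM (log2 ratio 2.02 ± 0.25) and AT1G26390 from 2.6 to 15.1 FPKM. These clusters and the berberine bridge list were singled out after their values had been seen.

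Each list of starch, sugar, amino acid and trehalose genes had more called rises than called falls, as did major facilitator, nitrate and peptide transporters as 1 list. All members together also had more called rises than called falls. BAM5, a beta-amylase, rose from 12.9 to 909 FPKM (log2 ratio 6.14 ± 0.24) and AMY1, an alpha-amylase, from 4.69 to 60.9 FPKM. Of 29 starch and amylase genes 4 rose and 1 fell by Cuffdiff, with 5 higher and 7 lower at an unadjusted p under 0.05. In that list 18 genes had a negative effect, and the median was -0.12. Of 21 sugar transporters 8 rose and 3 fell, with PMT5 going from 27.3 to 97.4 FPKM and STP4, an importer of monosaccharides, from 24.9 to 87.4 FPKM. GPT2, which moves glucose phosphate into plastids, rose from 4.63 to 26.3 FPKM. Amino acid transporters rose in 15 of 79 cases and fell in 2, and the major facilitator, nitrate and peptide transporters in 31 of 119 and 6. NRT1.8, which takes nitrate out of the xylem, rose from 0.68 to 46.4 FPKM (log2 ratio 6.09 ± 0.75), and the peptide transporter PTR3 from 1.52 to 44.9 FPKM (log2 ratio 4.89 ± 0.26). Trehalose phosphate proteins rose in 3 of 9 cases (TPS9, TPS10 and TPS11) and fell in 0 by Cuffdiff, with 4 higher and 1 lower at an unadjusted p under 0.05.

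Lipid transfer proteins rose in 18 of 65 cases and fell in 3, while 33 had a negative effect. AT4G22470 rose from 2.24 to 116 FPKM (log2 ratio 5.69 ± 0.27), EARLI1 from 50.5 to 1945 FPKM and LTP4 from 3.89 to 38.2 FPKM. Aquaporins, the water channels, rose in 5 of 26 cases and fell in 1, with RD28 going from 31.3 to 121 FPKM. ABCG22, a membrane transporter linked to stomatal water loss, rose from 13.6 to 127 FPKM and the vacuolar cation exchanger CAX3 from 10.1 to 97.6 FPKM. The nitrilase genes NIT1, NIT2 and NIT3, which stand side by side, rose from 929 to 3721 FPKM, from 49.4 to 369 FPKM and from 17.5 to 40.1 FPKM, whereas NIT4, which acts on cyanoalanine, fell from 25.6 to 3.86 FPKM. SQE6, a squalene epoxidase-like enzyme, rose from 28.5 to 261 FPKM.

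Among stress genes, late embryogenesis abundant proteins and dehydrins, which protect dehydrated cells, rose in 1 of 27 cases and fell in 5. The dehydrin ERD14 rose from 365 to 763 FPKM and LEA14 fell from 36.9 to 12.2 FPKM. COR15A, a cold-induced plastid protein, fell from 21.8 to 5.87 FPKM. Subtilases, secreted proteases, rose in 2 of 26 cases and fell in 5. F-box proteins, with 4 rises and 2 falls among 159, and RING and U-box proteins, with 12 and 4 among 351, gave rises in 2.52% and 3.42% and falls in 1.26% and 1.14% of their members. Of 36 proteasome subunits and 17 autophagy proteins 0 were called by Cuffdiff, and 1 in each list was higher and 0 lower at an unadjusted p under 0.05.

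Other families of metabolism and transport went both ways. GDSL lipases, many of which act on surface lipids, rose in 13 of 55 cases and fell in 6, with AT1G28660 going from 7.42 to 49.003 FPKM and AT5G33370 from 22.4 to 5.07 FPKM. Methyltransferases that use S-adenosylmethionine had 10 rises and 11 falls among 119, with AT5G38780 going from 1.03 to 9.37 FPKM and AT1G15125 from 68.2 to 17.8 FPKM. Oxygenases that use 2-oxoglutarate and iron had 11 rises and 6 falls among 75, and AT5G05600 of these rose from 23.1 to 106 FPKM. HXXXD-type acyltransferases had 10 rises and 5 falls among 45. ABC transporters had 10 and 5 among 72 and MATE efflux proteins 8 and 5 among 41, with the MATE protein AT3G23550 falling from 10.5 to 1.84 FPKM and AT4G21910 rising from 24.7 to 62.8 FPKM. Ferritins and metal-binding proteins had 6 rises and 3 falls among 52, and the metallothionein MT1B rose from 1.59 to 23.2 FPKM (log2 ratio 3.86 ± 0.36).

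Among proteases, cysteine proteases rose in 5 of 37 cases and fell in 1. CEP1, a protease of programmed cell death, rose from 2.63 to 17.3 FPKM (log2 ratio 2.72 ± 0.25). Serine carboxypeptidase-like proteins rose in 5 of 38 cases and fell in 4, with scpl48 going from 50.02 to 113 FPKM. Heat shock and DNAJ proteins, which fold other proteins, had 9 rises and 6 falls among 184, and BIP3, a chaperone of the endoplasmic reticulum, fell from 2.55 to 0.688 FPKM. Cold-regulated proteins had 2 rises and 4 falls among 14, and RCI2B fell from 50.4 to 29.3 FPKM. Phosphatases of the 2C class, several of which hold back abscisic acid signalling, had 5 rises and 4 falls among 52, and B-box and CONSTANS-like zinc fingers, which act in light signalling, 3 and 1 among 26, with BBX14 going from 43.95 to 101.1 FPKM. In 3 smaller lists Cuffdiff called 0 falls. Of 13 gibberellin-regulated proteins and oxidases 2 rose, with 5 higher and 3 lower at an unadjusted p under 0.05. Of 11 genes of chlorophyll metabolism 1 rose, ACD1, which opens the ring of the pigment, from 37.5 to 62.3 FPKM, and 2 were higher and 3 lower at an unadjusted p under 0.05. Of 15 laccases, oxidases of lignin formation, LAC1 rose from 3.01 to 6.14 FPKM, and 1 was higher and 3 lower at an unadjusted p under 0.05.

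Genes of growth machinery had few calls and mostly negative effects. Of 324 ribosomal proteins 0 rose and 4 fell by Cuffdiff, 268 had a negative effect, and the median was -0.15. At an unadjusted p under 0.05 the counts were 3 higher and 30 lower. Of 26 kinesins, motors that act on microtubules, 0 were called by Cuffdiff, and 0 were higher and 12 lower at an unadjusted p under 0.05, with a median effect of -0.34. Histones rose in 0 of 43 cases and fell in 3, with 0 higher and 10 lower at an unadjusted p under 0.05. HIS1-3, a linker histone induced by drought, fell from 33.8 to 12.9 FPKM. Pentatricopeptide proteins, which process organelle RNA, rose in 0 of 183 cases and fell in 3, with 1 higher and 13 lower at an unadjusted p under 0.05. DEAD-box helicases and nucleolar proteins had 2 rises and 1 fall among 52. Of 16 tubulins, the units of microtubules, 0 were called by Cuffdiff, with 2 higher and 0 lower at an unadjusted p under 0.05. Cyclins and cyclin-dependent kinases with their inhibitors rose in 1 of 82 cases and fell in 5, and CYCD1, a D-type cyclin of entry into the cell cycle, fell from 16.8 to 6.41 FPKM.

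Light-harvesting and photosystem proteins rose in 1 of 78 cases and fell in 6, and 68 had a negative effect, with a median of -0.33. CAB1, a light-harvesting protein with the highest level of all members in Col-0, was at 11773 and 10860 FPKM and not called. Of 41 members encoded in the plastid genome 33 had a negative effect and the median was -0.91. The photosystem genes among these 41, such as psbA, also belong to the list above, so the 2 results are not separate. Those called were psbA, the D1 protein of photosystem II, from 146 to 25.3 FPKM (log2 ratio -2.53 ± 0.52), and rbcL, the large subunit of Rubisco, from 81.8 to 19.99 FPKM (log2 ratio -2.03 ± 0.54). In BZR1-YFP psbA was at 58.7 FPKM and rbcL at 38.3 FPKM. The Col-0 group that received mock had psbA at 39.5 FPKM and rbcL at 21.5 FPKM.

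The largest rise by effect was that of AT3G01345, annotated only as an expressed protein (chromosome 3, 129138 to 130749). It went from 0.275 to 110.1 FPKM, a log2 ratio of 8.65 ± 0.46, and was at 0.58 FPKM in BZR1-YFP, 0.318 FPKM in mock and 0.226 FPKM with brassinolide, so BEH2-YFP alone among the 5 groups was above 1 FPKM. The 3 members on either side of it on the chromosome were not called. AT1G27565, a hypothetical protein, was listed at 0 in Col-0 and BZR1-YFP, at 0.0307 and 0.0312 FPKM in mock and with brassinolide, and at 11.7 FPKM in BEH2-YFP, again between uncalled neighbours. The amino acid transporter UMAMIT25 rose from 0.231 to 9.69 FPKM and was at 0.817 FPKM in BZR1-YFP. LSH2, of a family named for light-dependent hypocotyl growth, rose from 0.723 to 13.1 FPKM, against 1.14 FPKM in BZR1-YFP. DXPS1, named as an enzyme of plastid isoprenoid synthesis, rose from 0.431 to 20.4 FPKM. Genes without a symbol in the table made up 10932 members, of which 712 rose and 465 fell.

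Among the falls, AT2G20870, a cell wall protein precursor, went from 23.7 to 0.434 FPKM (log2 ratio -5.77 ± 0.57) and was at 9.8 FPKM in BZR1-YFP. PCC1, a pathogen and clock controlled gene, fell from 40.5 to 2.5 FPKM, SIB1, a cofactor of WRKY33, from 13.4 to 0.799 FPKM and the hydrolase NUDT21 from 39.9 to 7.83 FPKM. Of the hypothetical proteins, AT4G19430 fell from 30.99 to 3.25 FPKM, AT1G13650 from 50.5 to 11.7 FPKM and AT5G42530 from 708 to 173 FPKM, and in BZR1-YFP they were at 36.8, 50.9 and 423 FPKM.

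**Figure D3:**
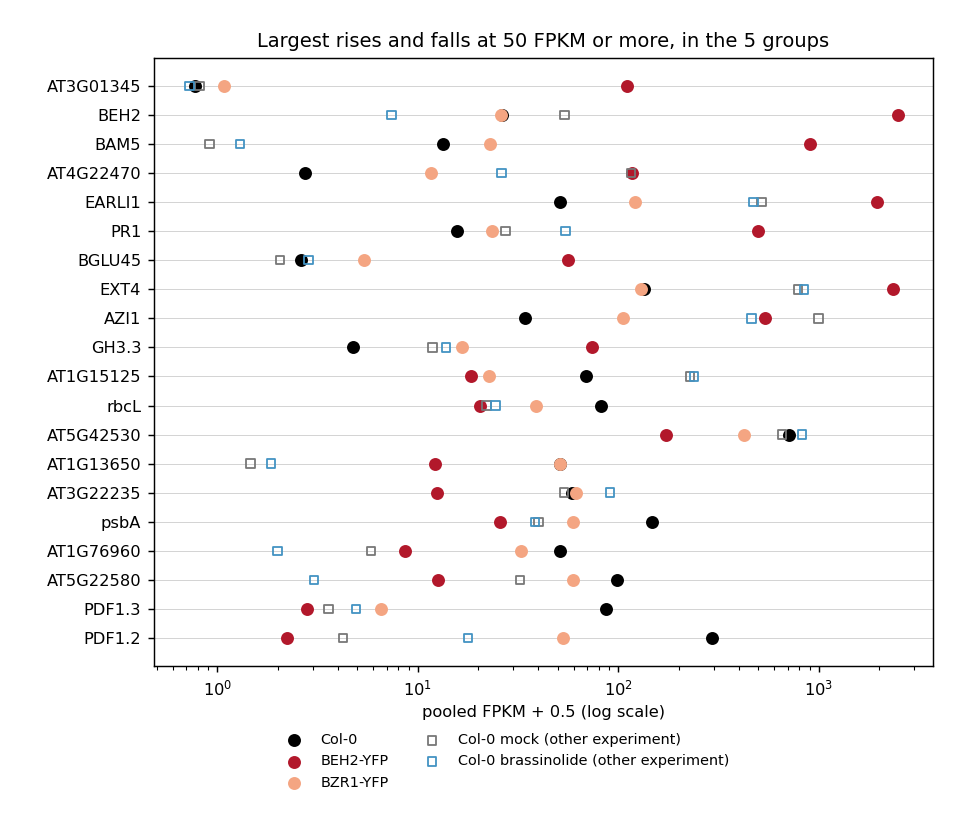
Pooled level in FPKM, with 0.5 added and on a log scale, of the 10 largest rises and 10 largest falls among called members at 50 FPKM or more, in all 5 groups, with filled circles for the overexpression experiment and open squares for the hormone experiment. AT3G01345 is high in BEH2-YFP alone, AT4G22470 stands at 116 FPKM in BEH2-YFP and 115 FPKM in mock, and AZI1 is higher in mock than in BEH2-YFP.

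The mock group of the hormone experiment gives a further wild type level for each gene. For 474 of the 1596 rises (29.7%) the mock value was as high as that of BEH2-YFP or higher, and for 273 of the 979 falls (27.9%) it was as low or lower. On the other side, the mock value was at or beyond that of Col-0, away from BEH2-YFP, for 399 rises (25%) and 258 falls (26.4%). AZI1, a gene of systemic immunity, was at 33.9 FPKM in Col-0, 537 FPKM in BEH2-YFP and 995 FPKM in mock. Clock genes also stood at other levels in mock, with CCA1, a morning gene, at 45.2 FPKM in Col-0, 41.3 FPKM in BEH2-YFP and 0.249 FPKM in mock, and TOC1, an evening gene, at 13.8, 14.05 and 79.3 FPKM. Within the overexpression experiment 9 of 10 clock genes, listed after their values had been seen, were not called, and ELF4, an evening gene, fell from 13.4 to 4.49 FPKM. The experiments come from separate Cuffdiff runs, so these levels are given side by side with no test.

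Called members were also compared by their place on the chromosome. Over 19576 pairs of neighbouring members 215 were both higher, 80 both lower and 146 opposite. A member that followed a higher one was higher in 13.5% of cases, and one that followed a lower one was lower in 8.21%, beside 8.14% and 4.99% over all members tested. Of the 215 higher pairs 47 carried the same descriptive name, a case in which reads of near copies may have been shared. Of all 19576 pairs 638 did. Some names number the members of a family, as for xyloglucan endotransglucosylases, so neighbouring near copies can also be among the pairs with different names. The longer runs of higher members included AZI1, EARLI1 and the 3 genes after them (chromosome 4, 7401087 to 7414955), the kinases CRK11 to CRK15 (chromosome 4, 12140899 to 12160279), and SAUR29 to SAUR26 (chromosome 3, 976715 to 983768). GPT2, BGLU45 and BGLU46 rose next to each other on chromosome 1 (22824414 to 22838635) though GPT2 belongs to another family. Runs of lower members included the thalianol genes and the gulonolactone oxidase-like genes GulLO5, GulLO2 and GulLO6 (chromosome 2, 19205157 to 19215210).

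Brassinolide against mock shares no library with BEH2-YFP against Col-0, and called 657 of 19479 tested members higher (3.37%) and 520 lower (2.67%). Members higher in both numbered 210, 31.96% of the brassinolide rises and 13.2% of the BEH2-YFP rises. Members lower in both numbered 137, 26.3% of the brassinolide falls and 13.99% of the BEH2-YFP falls. In the opposite direction, 103 members rose in BEH2-YFP and fell with brassinolide (19.8% and 6.45%), and 43 fell in BEH2-YFP and rose with brassinolide (6.54% and 4.39%). Across 19628 genes, which are not independent replicates, the effects had a Pearson r of 0.12 and a Spearman rho of 0.15.

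Members that rose in both included SAUR9, which went from 1.02 to 8.45 FPKM with brassinolide, and ASN1, an asparagine synthetase, which went from 35.7 to 164 FPKM in BEH2-YFP and from 51.8 to 156 FPKM with brassinolide. Members that fell in both included AT5G22580, a stress-responsive barrel protein, from 98.6 to 12.1 FPKM in BEH2-YFP and from 31.9 to 2.54 FPKM with brassinolide, the dark-inducible DIN11, from 9.98 to 0.584 FPKM and from 7.91 to 1.35 FPKM, and EXT6, an extensin-like protein, from 8.34 to 3.03 FPKM and from 21.1 to 3.92 FPKM. XTH14 fell with brassinolide from 19.01 to 6.0 FPKM, and XTH4, a wall-loosening enzyme of the same family, rose in both, from 109.6 to 462 FPKM in BEH2-YFP and from 346 to 918 FPKM with brassinolide.

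In the opposite direction, EXPA8 rose with brassinolide from 12.6 to 47.3 FPKM and EXPA11 from 11.9 to 27.8 FPKM, both of which fell in BEH2-YFP. LOX2 fell with brassinolide from 51.6 to 9.14 FPKM and GASA1 from 862 to 373 FPKM, both of which rose in BEH2-YFP. PDF1.2 rose with brassinolide from 3.74 to 17.3 FPKM and WRKY70 from 32.8 to 61.6 FPKM. Native BEH2 fell with brassinolide from 53.5 to 6.91 FPKM. By list, pectin lyases and polygalacturonases had 12 rises and 0 falls with brassinolide by Cuffdiff (21 and 3 at an unadjusted p under 0.05), expansins 6 and 3, and arabinogalactan and fasciclin proteins 18 and 2, against 5 and 4 in BEH2-YFP. SAUR-like proteins had 22 rises and 3 falls with brassinolide and xyloglucan endotransglucosylases 9 and 5. WRKY factors had 6 and 4, aquaporins 12 and 0 (17 and 0 at an unadjusted p under 0.05), and tubulins 7 and 0 (10 and 0). Whether these counts differ between the experiments was not tested.

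**Figure D4:**
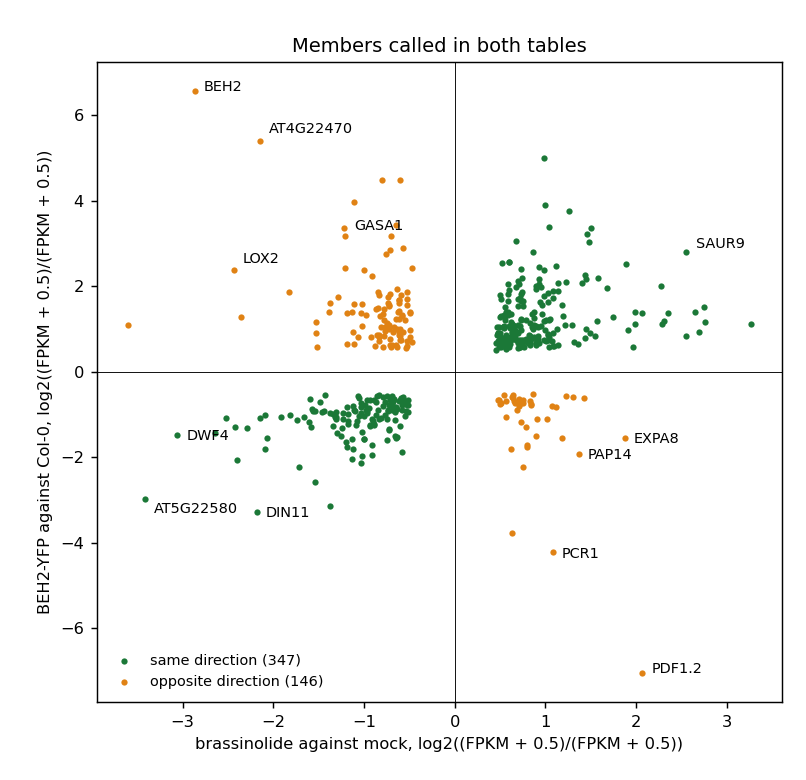
Effects of brassinolide against mock (horizontal) and of BEH2-YFP against Col-0 (vertical), both on the log2 scale with 0.5 FPKM added, for members called in both tables, 347 with the same direction in green and 146 with opposite directions in orange. BEH2, AT4G22470 and LOX2 lie at the upper left, SAUR9 at the upper right, DWF4 and DIN11 at the lower left and PDF1.2 at the lower right.

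BZR1-YFP against Col-0 called 233 of 19580 tested members higher (1.19%) and 93 lower (0.475%). It shares its Col-0 libraries with BEH2-YFP, so values are only set side by side. The 1596 rises had a median effect of 0.99 in BEH2-YFP and 0.27 in BZR1-YFP, and the 979 falls -0.83 and -0.18. Both sets were chosen by calls against the same Col-0 libraries, so their medians in BZR1-YFP are not independent of that choice. EXT4 was at 135 FPKM in Col-0, 2350 FPKM in BEH2-YFP and 129 FPKM in BZR1-YFP. PR4 was at 145, 1009 and 126 FPKM in the same order, LTP4 at 3.89, 38.2 and 15.4 FPKM, and MIPS1, an enzyme of inositol synthesis, at 111, 38.6 and 111 FPKM. PCR1, a small membrane protein of metal transport, was at 12.7, 0.205 and 31.8 FPKM, lower than Col-0 in BEH2-YFP and higher in BZR1-YFP.

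The sequence upstream of each gene was searched on both strands for letters that this family and WRKY factors are known to bind, from 250 bases before to 50 after the annotated start, in RefSeq's TAIR10.1 for 19581 nuclear members. The brassinosteroid response element, searched as CGTGTG or CGTGCG, was present in 8.6% of all members and 8.19% of all 27442 nuclear protein-coding genes. It was present in 14.04% of the 976 falls, 18.1% of the 321 falls with an effect of -1 or less and 24.1% of the 137 members lower in both experiments. Among the 1596 rises it was present in 8.58%. Among all members called with brassinolide, whether or not they were called in BEH2-YFP, it was present in 17.1% of the 520 lower and 6.09% of the 657 higher. The G-box CACGTG was present in 8.7% of all members, 12.3% of the falls and 6.39% of the rises, and 435 members held both, whose letters can overlap. The E-box CANNTG, which includes the G-box, was present in 62.4%, 67.01% and 63.5% of the same sets. The W-box core TTGAC was present in 51.02% of all members, 48.3% of the falls and 58.8% of the rises, and in 56.2% of the members lower and 51.9% of those higher with brassinolide. The windows held on average 32.05% G and C bases over all members, 31.4% in the falls and 30.3% in the rises, and the part of base composition in these shares was not tested. A match describes letters and is not evidence of binding.

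**Figure D5:**
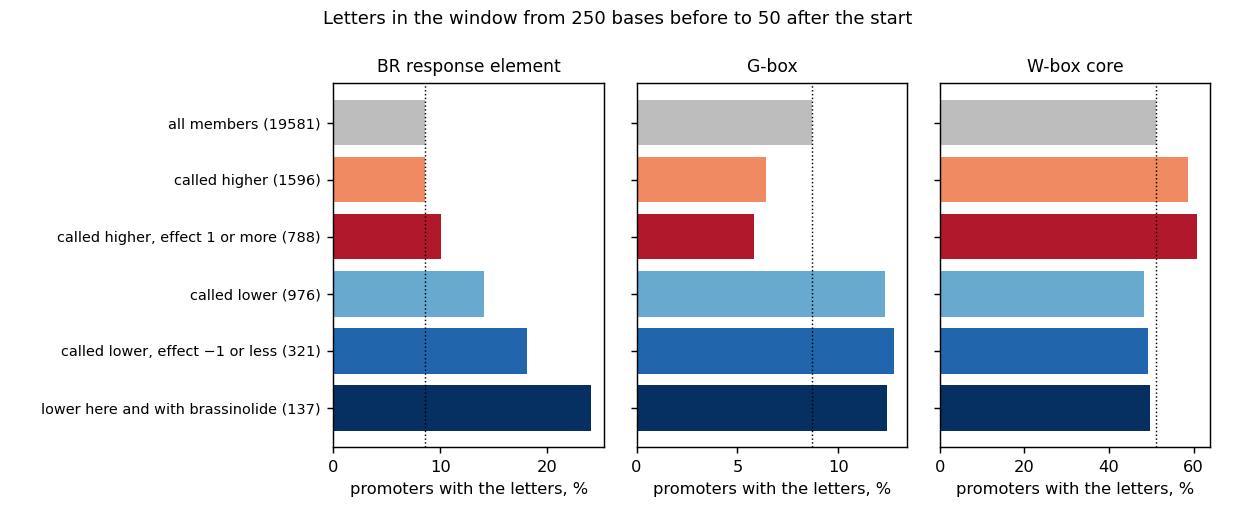
Share of promoters (%, horizontal) that hold the brassinosteroid response element, the G-box or the W-box core from 250 bases before to 50 after the start, for all members and for sets of called members, with the number of promoters in brackets and a dotted line at the share over all members. The response element goes from 8.6% over all members to 24.1% among members lower here and with brassinolide, and the W-box core stands at 58.8% among the rises.

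The following stretches of 120 bases belong to the 8 members with the largest falls in BEH2-YFP among those lower in both experiments that hold the response element, and are shown because this set had the highest share among those counted. They come from RefSeq's TAIR10.1, lie before the annotated start and read 5′ to 3′ along the gene, and capitals mark the response element on either strand.
AT5G66080 (chr5:26425449-26425568, minus strand): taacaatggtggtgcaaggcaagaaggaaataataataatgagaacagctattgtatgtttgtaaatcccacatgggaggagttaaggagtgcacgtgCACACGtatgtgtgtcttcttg
AT4G16146 (chr4:9144584-9144703, minus strand): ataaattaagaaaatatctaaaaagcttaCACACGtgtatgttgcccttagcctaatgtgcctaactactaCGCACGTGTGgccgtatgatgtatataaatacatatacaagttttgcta
WRKY40 (chr1:30383441-30383560, plus strand): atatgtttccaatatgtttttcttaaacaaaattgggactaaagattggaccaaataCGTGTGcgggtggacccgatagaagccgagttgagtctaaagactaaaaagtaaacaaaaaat
AT5G50130 (chr5:20389795-20389914, plus strand): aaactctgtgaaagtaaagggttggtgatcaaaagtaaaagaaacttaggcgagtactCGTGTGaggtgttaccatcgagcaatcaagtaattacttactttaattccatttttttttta
LEA14 (chr1:172949-173068, minus strand): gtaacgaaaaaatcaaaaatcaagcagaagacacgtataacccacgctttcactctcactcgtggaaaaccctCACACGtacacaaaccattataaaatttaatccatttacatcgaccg
UGT73B4 (chr2:6761515-6761634, plus strand): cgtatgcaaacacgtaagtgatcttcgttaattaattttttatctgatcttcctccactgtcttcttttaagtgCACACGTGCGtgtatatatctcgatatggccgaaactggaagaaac
BGL2 (chr3:21190034-21190153, minus strand): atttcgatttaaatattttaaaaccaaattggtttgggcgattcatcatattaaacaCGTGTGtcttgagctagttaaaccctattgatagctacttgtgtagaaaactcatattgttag
MIPS1 (chr4:18472049-18472168, minus strand): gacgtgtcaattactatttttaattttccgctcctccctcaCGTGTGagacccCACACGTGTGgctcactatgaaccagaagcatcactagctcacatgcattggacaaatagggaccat
The G-box CACGTG also lies in the stretches of AT5G66080, AT4G16146, UGT73B4, BGL2 and MIPS1. It lies inside the capitals in AT4G16146, UGT73B4 and MIPS1, overlaps them in BGL2 and is next to them in AT5G66080. AT4G16146 and MIPS1 each hold a further G-box that lies only partly inside the capitals. AT5G66080, a protein phosphatase of the 2C class, fell from 4.65 to 0.722 FPKM in BEH2-YFP and from 3.21 to 0.201 FPKM with brassinolide. UGT73B4, a glycosyltransferase of stress responses, fell from 13.7 to 4.39 FPKM and from 6.85 to 1.25 FPKM. MIPS1 fell from 111 to 38.6 FPKM and from 16.8 to 6.73 FPKM, and WRKY40 fell with brassinolide from 6.16 to 2.42 FPKM.

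The stretch before BEH2 is shown because the native gene, at 53.5 FPKM in mock, fell with brassinolide and holds the same letters, again in capitals.
BEH2 (chr4:17334356-17334475, minus strand): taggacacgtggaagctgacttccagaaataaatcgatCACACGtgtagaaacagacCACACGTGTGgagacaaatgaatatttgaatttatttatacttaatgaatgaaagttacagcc
The stretch before PR1 is shown as an example of the W-box core among the largest rises, with the core in capitals.
PR1 (chr2:6242584-6242703, minus strand): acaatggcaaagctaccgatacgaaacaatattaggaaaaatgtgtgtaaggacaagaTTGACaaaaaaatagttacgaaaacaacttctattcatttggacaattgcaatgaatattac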

How the data were processed

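Stranded mRNA libraries of whole seedlings, 10 in 5 groups, were sequenced, and the reads were processed by the authors with TopHat2 2.0.13 and Cuffdiff 2.2.0 on the TAIR10 genome, per the submitters' processing notes. The authors deposited, per the file headers, 1 pooled FPKM value per locus and group, so the depth of the libraries is unknown and no spread between libraries can be given. The deposited tables also hold a log2 fold change, a test score (the test statistic), and a p-value and q-value per locus. P-values rest on 2 libraries per group, and the labels name the libraries biological replicates without saying what separates them. All 3 tables of all loci were used and 0 value columns with no sample or group were left out. The smallest deposited p-value is 5e-05, which gives a q-value of 0.00149.

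Members were the protein-coding loci whose larger value was at least 1 FPKM. The effect was the log2 ratio after adding 0.5 FPKM to both groups. The standard error of the log2 ratio was its size divided by 1.42 times the deposited statistic. The factor 1.42 (k) was the median that brought deposited statistics with p-values between 0.0002 and 0.9 onto a normal scale. The step was run on simulated data made with 1 constant factor, which cannot show whether 1 factor holds for Cuffdiff output. For single genes the standard error can be too small, as for psbA, at 0.52 beside a Cuffdiff p-value of 0.00015. Functional lists came from words in the name column, except 5 added after their values were seen (brassinosteroid synthesis, thalianol and marneral clusters, berberine bridge enzyme-like proteins and the circadian clock). The members and lists were chosen with earlier results of these data known, and several name patterns were corrected after their matches had been seen. Genes named in the text are the BZR family, the largest called effects per list (up to 3) and over all members, and the most abundant members in Col-0. Others, namely AIL7, ASN1, AT3G04320, BAK1, BAS1, BRI1, BRL1, BRL3, CAX3, EXT6, GASA1, GPT2, KTI1, LOX2, LSH2, MIPS1, NAC019, NIT1 to NIT3, ORA47, PDF1.2c, SQE6, TI1, TI2, WRKY33, WRKY40, WRKY60, WRKY70, XTH4, XTH14 and single markers of organs, were chosen after their values were seen. Coordinates and upstream sequence came from RefSeq's TAIR10.1, which gave a position for all 19628 members. Python 3.11.15, pandas 2.3.3, SciPy 1.17.1, Biopython 1.88 and matplotlib 3.10.9 were used. Alternatives were other thresholds, minimum levels, added constants, gene classes and upstream windows.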

Additional observations from a re-analysis of the deposited data

Results flagged for a closer look

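A further 116 loci outside the members were called at the same threshold in the authors' deposited table of BEH2-YFP against Col-0, and no comparison of the report uses them. They comprised 45 protein-coding loci under 1 FPKM in both groups, besides RNA genes and pseudogenes. Long noncoding RNA loci were higher in 18 cases and lower in 2. The number of such loci tested is not given here, so no share can be set beside these counts. The pseudogene AT4G04410 rose from 1.92 FPKM in Col-0 to 36.0 FPKM in BEH2-YFP, and was at 2.58 FPKM in BZR1-YFP. The noncoding locus AT2G04805 rose from 3.98 to 42.2 FPKM. The locus AT4G02825, of the class of miscellaneous RNA, rose from 4.50 to 34.6 FPKM. The pseudogene AT5G35935 fell from 3.39 to 0.188 FPKM. The noncoding RNA AT2G01422 was at 30.4 FPKM in Col-0, 7.09 FPKM in BEH2-YFP and 0.356 FPKM in BZR1-YFP.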

How the results depend on the processing

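No paired analysis was possible because the deposited tables hold 1 pooled value per group, so neither leaving out a library nor a replicate block was run. With a change of at least 2-fold required beside the q-value, 866 members were higher and 411 lower in BEH2-YFP, and 54 were higher and 62 lower both there and with brassinolide. At an unadjusted p-value under 0.05 the counts were 2575 higher and 2304 lower. Under the other thresholds, minimum levels and gene classes tried, the counts lay between 1416 and 1836 higher and between 761 and 1264 lower. Adjusted over the members by the Benjamini-Hochberg method in place of the deposited q-value, they were 1816 and 1237. With a minimum of 5 FPKM, list medians moved for SAUR-like proteins to 0.75, xyloglucan endotransglucosylases to 0.90, lectin receptor kinases to 0.27, cytochromes P450 to 0.20, pectin methylesterases and inhibitors to 0.22, lipid transfer proteins to 0.18, terpene synthases to -0.20 and late embryogenesis abundant proteins to -0.35, and the medians of the P450, pectin methylesterase and lipid transfer lists turned from negative to positive. With name patterns as first written, the medians of defensins and of late embryogenesis abundant proteins were -0.03 and -0.02. Those patterns, which also matched other proteins, gave 15 higher and 21 lower of 187 for defensins, 7 higher and 5 lower of 57 for late embryogenesis abundant proteins, so that rises outnumbered falls, and 10 higher and 3 lower of 53 for sugar transporters. With 1000 bases before the start, chosen after seeing the data, the response element was present in 23.1% of all members, 30.3% of falls and 22.4% of rises. The cause of these moves was not tested.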
